A study of Mus musculus with 16 samples.

Results

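The methionine cycle and transsulfuration genes were followed through 4 groups of formalin-fixed mouse liver with 15 probes of 10 genes, Mat1a, Mat2a, Gnmt, Ahcy, Bhmt, Bhmt2, Cbs, Cth, Cdo1 and Csad. The genes were chosen by pathway, and every probe whose transcript accession belongs to one of these symbols was taken from the 55681 probes of the array, which name 20660 genes in all. All 15 were among the 29688 probes bright enough to test. The mice were female B6C3F1, a hybrid strain much used in toxicology, bought at 5 to 6 weeks of age. Furan, a volatile solvent and food contaminant that liver P450 enzymes activate, was dosed by oral gavage over 21 days at 8 mg/kg body weight, with corn oil as its vehicle, while controls had the oil alone. Livers were taken 4 h after the last dose. The groups were furan livers kept 3 weeks in formalin, corn oil livers kept 3 weeks in formalin, furan livers kept 18 h in formalin and corn oil livers kept 18 h in formalin, all then embedded in paraffin, with 4 arrays in each group. RNA came from 2 sections of 10 µm per liver at 3 weeks and from 1 section at 18 h, so section number and time in formalin cannot be told apart. RNA integrity numbers were 1.3 to 2.4 per the labels, which is heavily fragmented RNA.

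Liver RNA in Cy5 was co-hybridised with a Cy3 pool of all samples, with no dye swap, and a value here is the log2 ratio of sample over pool. A value of 0 is the level of the pool, and values of different probes say nothing about which gene is more abundant. In this order, the furan samples are 41, 42, 43 and 44 at both times, and the corn oil samples are 2, 3, 4 and 6 at 18 h and 2, 4 and 6 at 3 weeks. The 3-week corn oil arrays 2.1 and 2.2 share the number 2, correlated at r = 0.923 across probes and were averaged, which leaves 15 samples. Nothing in the labels says that they are the same animal. A probe was called when its adjusted p from limma, corrected by Benjamini-Hochberg over all 29688 probes, was under 0.05, and such a probe is said to have risen or fallen. Precision is limited by how many arrays there are.

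Methionine is activated to S-adenosylmethionine by methionine adenosyltransferases, and methyltransferases such as Gnmt use it and leave S-adenosylhomocysteine, which Ahcy splits to homocysteine. Homocysteine is either methylated back to methionine, with betaine as the donor in the Bhmt reaction, or drawn into transsulfuration, in which Cbs and Cth convert it to cystathionine and then cysteine. Cysteine feeds glutathione, or is oxidised by Cdo1 and turned by Csad towards taurine. Liver carries most of this traffic in a mammal, and the reactive dialdehyde formed from furan is known to bind glutathione and protein thiols.

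In tissue fixed for 18 h, furan livers were lower than corn oil livers for Mat1a, Gnmt and Ahcy of the methionine cycle and for Cth and Cdo1 of cysteine formation and use, and higher for betaine-homocysteine methyltransferase and for the brighter Mat2a probe. Of the 15 probes, 8 fell and 5 rose. The falls covered Mat1a, Gnmt, both Ahcy probes, Bhmt2, both Cth probes and Cdo1, and the rises covered all 3 Bhmt probes, 1 of the 2 Mat2a probes and Cbs. Over all tested probes 47.2% were called in this comparison, 20.4% as higher and 26.8% as lower, so calls were common at 18 h. The median difference of the 15 probes was -0.461, beside -0.0536 over all probes tested. The groups did not overlap for 12 of the 15 probes, 4 higher and 8 lower with furan, where 39.2% of all probes did not overlap.

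The split between higher and lower depended on the centring of the arrays. With each array centred on its median in place of loess, 9866 probes were higher and 2682 lower with furan at 18 h, beside 6064 higher and 7962 lower with loess, and 7758 and 6336 in the authors' deposited value table. Median centring moved the 15 differences by 0.141 to 0.594 upwards, and their median was then -0.0917, beside -0.461 with loess. The falls of Mat1a, Gnmt and Cdo1 were then -0.52, -0.56 and -0.47, and those of Ahcy P176160 and P2031100 were -0.81 and -0.63. Bhmt P2105181, P2105180 and P2103963 rose by 1.22, 1.59 and 2.13. With this centring 5 probes were called higher and 6 lower, and the calls of Bhmt2 and of the brighter Cth probe were the ones lost.

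Several array-wide measures moved with furan at 18 h. Probes well above background made up 53.7 ± 1.48% in furan livers and 47.3 ± 3.18% in corn oil livers (SD, n = 4 each), a difference of 6.4 points (exact permutation p = 0.0286, two-sided, the smallest the design allows). At 3 weeks it was 38.1 ± 2.39% in furan livers (n = 4) and 34.3 ± 1.77% in corn oil livers (n = 3), with an exact permutation p of 0.0571. All 8 hepatocyte markers were measured. With furan at 18 h 6 of them were lower and 0 higher, beside 26.8% lower and 20.4% higher over all probes. Their median difference was -0.713, while their summed signal ranged from 431812 to 505548 in furan livers and from 363146 to 522062 in corn oil livers. These ranges overlapped, and marker differences with median centring are not given here. Whether the lower marker ratios depend on the centring was not tested. The defining markers Krt19 of bile ducts and S100a8 of neutrophils were well above background on no array. In whole liver, fewer hepatocytes and less RNA per hepatocyte cannot be told apart, and the part of these measures in the results below was not tested, except that with the share of probes above background as a covariate 1 member probe, Bhmt P2103963, was called at 18 h and 595 probes in all. The median difference of the members was then -0.382, beside -0.461 without the covariate, and their SEs were 2.17 to 2.63 times as large. The covariate itself did not overlap between the groups, at 51.9 to 55.2% in furan livers and 44.3 to 50.1% in corn oil livers, so it and furan can hardly be told apart.

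**Figure D1:**
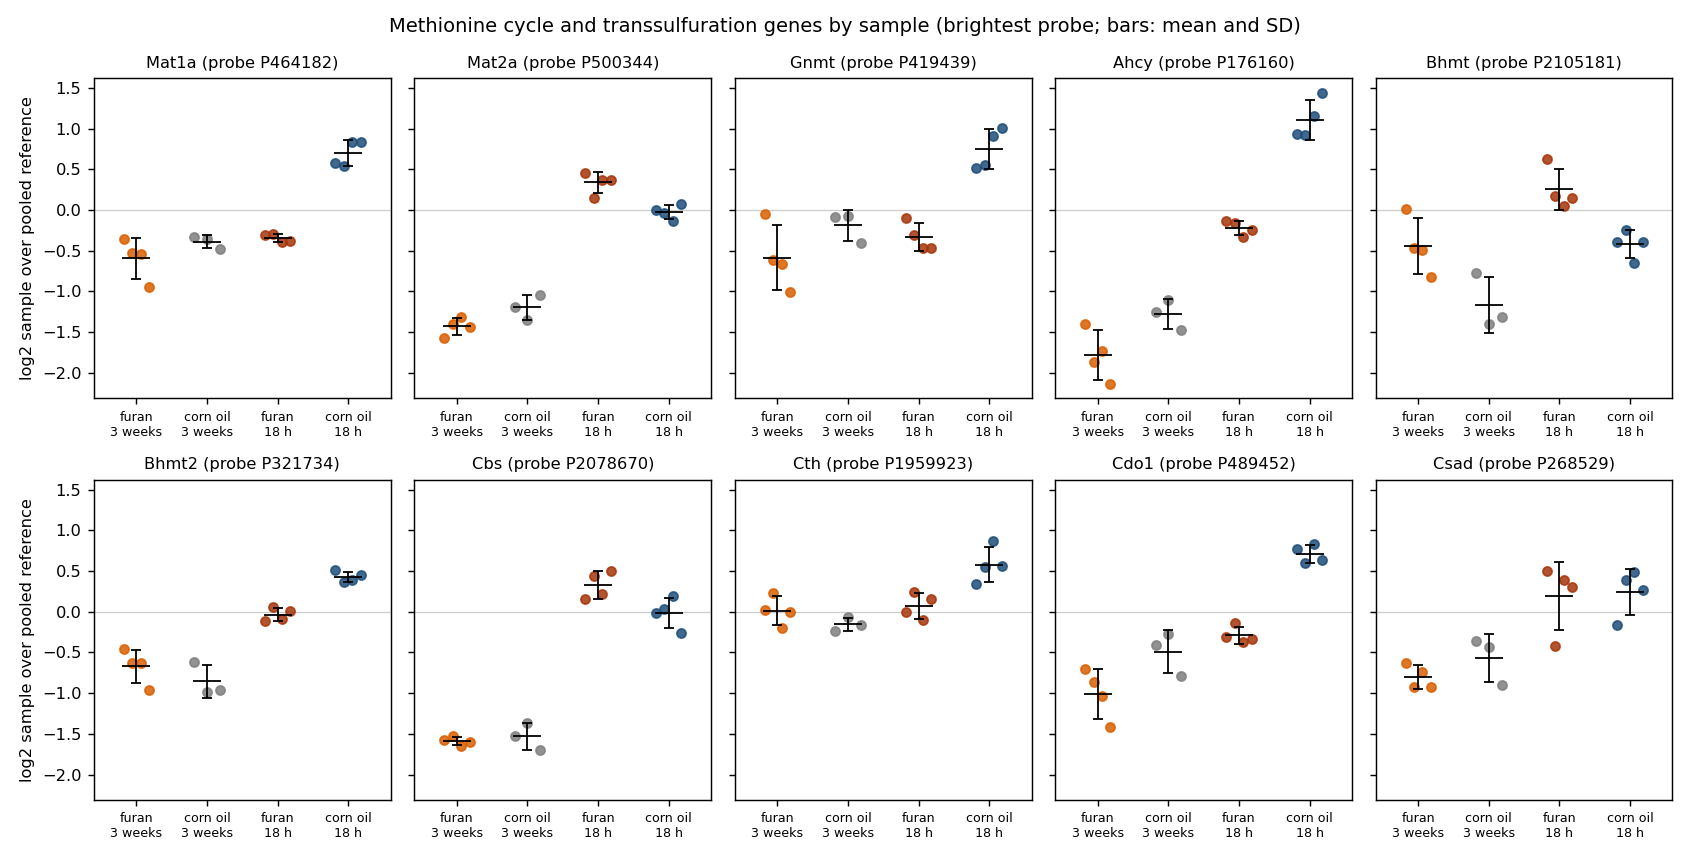
Log2 sample over pooled reference (vertical axis) for the brightest probe of each of the 10 genes, with 1 point per sample in furan and corn oil livers at 3 weeks and at 18 h in formalin, and bars for the mean and SD. At 18 h the furan points of Mat1a, Gnmt, Ahcy and Cdo1 lie below all corn oil points and those of Bhmt lie above them, while at 3 weeks the points of all 10 probes shown overlap.

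Mat1a encodes the methionine adenosyltransferase of adult hepatocytes. At 18 h it read -0.30, -0.30, -0.39 and -0.39 in furan livers, against 0.58, 0.55, 0.83 and 0.84 in corn oil livers. The 4 furan livers lay within a narrow band below every corn oil liver. Mat1a fell by 1.04 with furan (SE 0.10, adjusted p = 2.87e-05), and the difference was -0.99 on slide 1 and -1.10 on slide 2. At 3 weeks the furan livers read -0.36, -0.53, -0.54 and -0.95 and the corn oil livers -0.33, -0.35 and -0.48. These overlapped, with furan sample 44 lowest, and the difference of -0.21 (SE 0.15) was not called (adjusted p = 0.58). The furan effect was higher at 3 weeks than at 18 h by 0.84 (adjusted p = 0.00555), that is, less negative.

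Mat2a encodes the second methionine adenosyltransferase, which most other tissues use and which is low in quiescent adult liver. Its brighter probe, P500344, read 0.46, 0.15, 0.37 and 0.37 in furan livers at 18 h, against -0.0017, -0.031, -0.13 and 0.074 in corn oil livers. Furan livers were all higher, and this probe rose by 0.36 (SE 0.09, adjusted p = 0.00733). Its difference was 0.39 on slide 1 and 0.34 on slide 2, neither called alone. The dimmer probe, P2095047, read 0.46, 0.13, 0.15 and 0.12 in furan livers and 0.39, 0.62, 0.35 and 0.48 in corn oil livers. Only furan sample 41 reached into the corn oil range, and the difference of -0.25 was of the opposite sign and not called (adjusted p = 0.0659). Without furan sample 41 it was -0.32 with an adjusted p of 0.0233, and without corn oil sample 4 it was -0.31 with an adjusted p of 0.0375, so the Mat2a probes then disagreed as called results. At 3 weeks probe P500344 read -1.57, -1.40, -1.32 and -1.43 in furan livers and -1.19, -1.35 and -1.04 in corn oil livers. These overlapped, with a difference of -0.23 (SE 0.13, adjusted p = 0.467). Probe P2095047 was well above background on 0 of 4 arrays in either 3-week group, and no fold is given for it there. For P500344 the furan effect was lower at 3 weeks than at 18 h by 0.59 (-0.59, adjusted p = 0.0123).

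Gnmt, glycine N-methyltransferase, is an abundant liver enzyme that disposes of surplus S-adenosylmethionine. It read -0.10, -0.30, -0.47 and -0.46 in furan livers at 18 h, against 0.52, 0.56, 0.91 and 1.01 in corn oil livers. Furan livers were all below the pool and corn oil livers all above it. Gnmt fell by 1.08 (SE 0.13, adjusted p = 0.000109), with -0.93 on slide 1 and -1.23 on slide 2. At 3 weeks the values were -0.051, -0.62, -0.66 and -1.01 in furan livers and -0.089, -0.074 and -0.40 in corn oil livers. Furan sample 41 was above all corn oil livers and the other furan samples below them, and the difference of -0.40 (SE 0.17) was not called (adjusted p = 0.336). The effects at the 2 times differed by 0.69 with an adjusted p of 0.0587, just outside the threshold, and inside it without corn oil sample 3 at 18 h (0.80, adjusted p = 0.0319) or without furan sample 44 at 3 weeks (0.79, adjusted p = 0.0294).

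Ahcy, S-adenosylhomocysteine hydrolase, had the deepest fall of the brightest probes at 18 h. Probe P176160 read -0.14, -0.16, -0.33 and -0.25 in furan livers, against 0.93, 0.92, 1.16 and 1.44 in corn oil livers. The groups lay far apart, and the probe fell by 1.33 (SE 0.12, adjusted p = 2.77e-05), with -1.19 on slide 1 and -1.47 on slide 2. The dimmer probe, P2031100, read -0.36, -0.53, -0.69 and -0.69 in furan livers and 0.36, 0.61, 0.60 and 0.71 in corn oil livers. It fell by 1.14 (SE 0.10, adjusted p = 2.2e-05), with -1.05 on slide 1 and -1.22 on slide 2, so the Ahcy probes moved alike with furan at 18 h. At 3 weeks P176160 read -1.40, -1.86, -1.73 and -2.13 in furan livers and -1.25, -1.10 and -1.47 in corn oil livers. P2031100 read 0.87, 0.47, 0.56 and -0.24 in furan livers and 0.75, 1.03 and 0.61 in corn oil livers. Both sets overlapped, and the differences of -0.50 (SE 0.16, adjusted p = 0.217) and -0.38 (SE 0.19, adjusted p = 0.415) were not called. The furan effect was higher at 3 weeks for P176160 by 0.82 (adjusted p = 0.0194) and for P2031100 by 0.75 (adjusted p = 0.0402). The first of these calls was lost without corn oil sample 6 at 3 weeks (0.75, adjusted p = 0.0545). The other was lost on leaving out any single one of 12 of the 15 samples, namely every 18 h sample, corn oil samples 2 and 6 and furan samples 41 and 43 at 3 weeks, with values of 0.64 to 0.80 and adjusted p of 0.0502 to 0.0849.

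Bhmt, betaine-homocysteine methyltransferase, and Bhmt2, its paralogue that takes S-methylmethionine as donor, lie next to each other on chromosome 13 and went opposite ways at 18 h with loess, though not with median centring, where Bhmt2 was not called. The stretches before their starts are shown because of that contrast. They are the 133 bases upstream of each start in RefSeq (GRCm38.p6, minus strand), chr13:93637759-93637891 for Bhmt and chr13:93674303-93674435 for Bhmt2, written 5′ to 3′ with each CG in capitals. The length is the gap between Bhmt2 and Dmgdh, the dimethylglycine dehydrogenase gene that starts in the other direction.
Bhmt: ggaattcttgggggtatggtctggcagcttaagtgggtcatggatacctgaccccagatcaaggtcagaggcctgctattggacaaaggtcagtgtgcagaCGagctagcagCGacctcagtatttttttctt
Bhmt2: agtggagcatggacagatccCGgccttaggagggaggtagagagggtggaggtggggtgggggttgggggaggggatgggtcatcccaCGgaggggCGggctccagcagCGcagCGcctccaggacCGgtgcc
The Bhmt stretch held 2 CG and the Bhmt2 stretch 6, and over 250 bases upstream the counts were 5 and 20, beside a median of 6 over 32851 mouse promoters. RefSeq's table held 8 promoters of 7 of the genes. Over the same 250 bases the other counts were 29 for Mat2a, 6 for Gnmt, 9 for Ahcy, 21 for Cbs and 5 and 4 for Csad. The letters TGACNNNGC, the core of an antioxidant response element, and TGATGNAA, a composite element of C/EBP and ATF factors, were looked for on both strands and were in 0 of these 8 windows, while 10.2% and 3.45% of all promoters held them. With no match, none overlapped another, and this says only that these letters are not in these windows.

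The 3 Bhmt probes all rose with furan at 18 h, by different amounts. The brightest, P2105181, read 0.63, 0.18, 0.054 and 0.15 in furan livers, against -0.39, -0.24, -0.65 and -0.39 in corn oil livers. P2105180 read 0.22, -0.11, 0.03 and 0.12 in furan livers and -0.93, -0.78, -1.29 and -0.84 in corn oil livers. P2103963 read 1.11, 0.61, 0.46 and 0.43 in furan livers and -0.87, -0.59, -1.16 and -0.93 in corn oil livers. On each probe every furan liver was above every corn oil liver, and furan sample 41 was the highest furan liver on each. The rises were 0.67 (SE 0.13, adjusted p = 0.00192), 1.03 (SE 0.12, adjusted p = 0.000104) and 1.54 (SE 0.15, adjusted p = 3.77e-05) for these probes in turn. Within slide 1 they were 0.85, 1.09 and 1.73, and within slide 2 they were 0.49, 0.96 and 1.34.

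Bhmt also had the 2 largest differences among the members at 3 weeks. P2105181 read 0.011, -0.47, -0.49 and -0.82 in furan livers, against -0.77, -1.40 and -1.31 in corn oil livers. P2105180 read 0.29, 0.093, 0.27 and 0.061 in furan livers and -0.64, -0.89 and -0.55 in corn oil livers. P2103963 read -0.25, -1.16, -0.90 and -1.39 in furan livers and -1.02, -1.60 and -1.64 in corn oil livers. The groups were separate on P2105180 and overlapped on the others. The differences were 0.72 (SE 0.21, adjusted p = 0.194), 0.87 (SE 0.14, adjusted p = 0.0629) and 0.50 (SE 0.25, adjusted p = 0.408), and none was called. Without corn oil sample 4 at 3 weeks P2105180 had a difference of 0.78 and an adjusted p of 0.0399. The effects at the 2 times differed by 0.05 (adjusted p = 0.919) on P2105181 and by -0.15 (adjusted p = 0.616) on P2105180. On P2103963 the effect was lower at 3 weeks (-1.04, adjusted p = 0.0351), a call lost without corn oil samples 4 or 6 or furan samples 41 or 43 at 18 h, or without corn oil samples 2 or 6 or furan samples 42 or 44 at 3 weeks (values of -1.09 to -0.84, adjusted p of 0.0504 to 0.0891).

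Bhmt2 had 1 probe. It read -0.12, 0.061, -0.094 and 0.012 in furan livers at 18 h, against 0.51, 0.37, 0.38 and 0.45 in corn oil livers. The furan livers sat near the pool and below all corn oil livers, and Bhmt2 fell by 0.46 (SE 0.083, adjusted p = 0.00123), with -0.40 on slide 1 and -0.52 on slide 2. By limma on slide 1 alone Bhmt2 was not called (adjusted p = 0.0567). With median centring the difference was 0.061 (adjusted p = 0.743). At 3 weeks the values were -0.46, -0.63, -0.63 and -0.96 in furan livers and -0.62, -0.98 and -0.96 in corn oil livers. They overlapped, and the difference of 0.18 (SE 0.16) was not called (adjusted p = 0.665). The furan effect was higher at 3 weeks by 0.64 (adjusted p = 0.0219), which lost its call without corn oil sample 4 (0.56, adjusted p = 0.0514) or 6 (0.59, adjusted p = 0.0571) at 3 weeks. Whether the probes of these paralogues pick up each other's RNA was not tested.

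Cbs, cystathionine beta-synthase, commits homocysteine to transsulfuration. At 18 h it read 0.16, 0.44, 0.22 and 0.50 in furan livers, against -0.015, 0.031, 0.19 and -0.26 in corn oil livers. Corn oil sample 4 lay inside the furan range, so the groups overlapped. Cbs rose by 0.34 (SE 0.12, adjusted p = 0.0311), with 0.19 on slide 1 and 0.49 on slide 2, neither called alone. The call was lost without corn oil sample 3 (0.34, adjusted p = 0.0678) or 6 (0.26, adjusted p = 0.0939), and without furan sample 42 (0.32, adjusted p = 0.0773) or 44 (0.26, adjusted p = 0.1). At 3 weeks the values were -1.58, -1.52, -1.65 and -1.59 in furan livers and -1.52, -1.37 and -1.70 in corn oil livers. Both groups lay at one low level, -0.058 apart (SE 0.13, adjusted p = 0.888), and the effects at the 2 times differed by -0.40 (adjusted p = 0.116).

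Cth, cystathionine gamma-lyase, releases cysteine from cystathionine and can also make hydrogen sulfide. Its brighter probe, P1959923, read -0.0088, 0.24, -0.11 and 0.16 in furan livers at 18 h, against 0.34, 0.55, 0.87 and 0.57 in corn oil livers. Its dimmer probe, P431737, read -0.44, -0.24, -0.63 and -0.40 in furan livers and 0.38, 0.38, 0.61 and 0.42 in corn oil livers. The groups were separate on both probes. P1959923 fell by 0.51 (SE 0.11, adjusted p = 0.00399), with -0.59 on slide 1 and -0.43 on slide 2, and by 0.092 with median centring, which was not called. By limma on slide 2 alone P1959923 was not called either (adjusted p = 0.0727). P431737 fell by 0.88 (SE 0.10, adjusted p = 6.35e-05), with -0.84 on slide 1 and -0.92 on slide 2. At 3 weeks the sign was the other way on both probes. P1959923 read 0.026, 0.23, -0.21 and -0.0017 in furan livers and -0.23, -0.066 and -0.17 in corn oil livers. P431737 read 0.95, 0.88, 0.74 and 0.63 in furan livers and 0.50, 0.70 and 0.50 in corn oil livers. The ranges overlapped, and the differences of 0.17 (SE 0.13, adjusted p = 0.633) and 0.23 (SE 0.13, adjusted p = 0.452) were not called. The furan effect was higher at 3 weeks by 0.68 on P1959923 (adjusted p = 0.015) and by 1.11 on P431737 (adjusted p = 0.000704), the largest such difference among the 15 probes, with 1.15 on slide 1 and 1.11 on slide 2.

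Cdo1, cysteine dioxygenase, opens the oxidative use of cysteine. At 18 h it read -0.31, -0.14, -0.37 and -0.34 in furan livers, against 0.77, 0.59, 0.84 and 0.64 in corn oil livers. Every furan liver was below the pool and every corn oil liver above it. Cdo1 fell by 1.00 (SE 0.091, adjusted p = 2.74e-05), with -0.94 on slide 1 and -1.06 on slide 2. At 3 weeks it read -0.70, -0.87, -1.04 and -1.42 in furan livers and -0.41, -0.27 and -0.78 in corn oil livers. Corn oil sample 6 fell inside the furan range, and the difference of -0.52 (SE 0.14) was not called (adjusted p = 0.183). The effects at the 2 times differed by 0.48 (adjusted p = 0.0924), and by 0.59 (adjusted p = 0.0296) without furan sample 44 at 3 weeks.

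Csad, cysteine sulfinic acid decarboxylase, leads from the Cdo1 product towards taurine and was called in neither furan comparison. At 18 h it read 0.50, -0.42, 0.39 and 0.31 in furan livers and -0.16, 0.39, 0.48 and 0.26 in corn oil livers. The groups overlapped fully, with furan sample 42 lowest of all, and the difference was -0.051 (SE 0.20, adjusted p = 0.852). It had opposite signs on the slides, -0.40 on slide 1 and 0.30 on slide 2. At 3 weeks Csad was well above background on 0 of 4 furan arrays and 1 of 4 corn oil arrays. Furan livers there read -0.63, -0.92, -0.74 and -0.92 and corn oil livers -0.36, -0.44 and -0.90, and with nearly all of these arrays at background no fold is given.

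**Figure D2:**
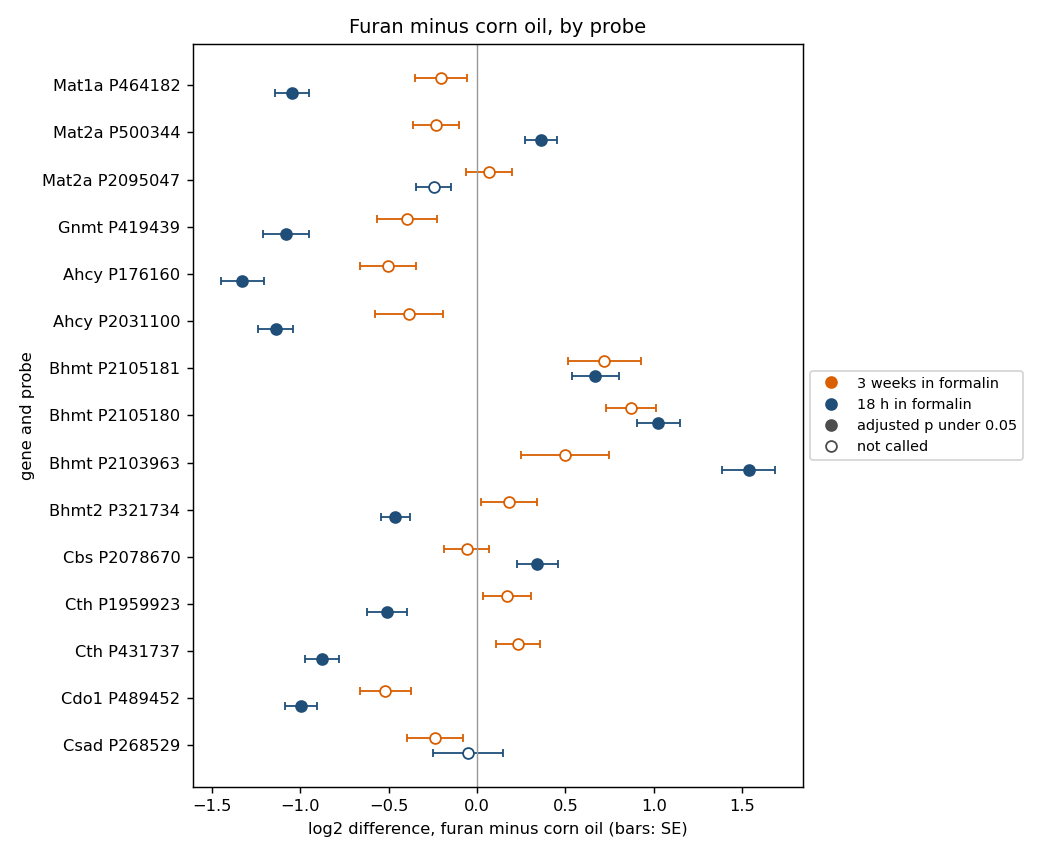
Log2 difference of furan minus corn oil livers (horizontal axis) with its SE for the 15 probes (vertical axis), at 3 weeks and at 18 h in formalin, filled where the adjusted p was under 0.05. At 18 h 13 points are filled, between -1.33 and 1.54, and at 3 weeks none is filled.

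Of the 15 probes, 0 were called between furan and corn oil livers at 3 weeks by limma, where 36 of 29688 probes were called in all, 0.121%, with 0.0876% higher and 0.0337% lower. With unadjusted p under 0.05 there were 5 member probes, beside 13.8% of all probes, and they belonged to Gnmt, to Ahcy probe P176160, to Cdo1 and to the Bhmt probes P2105181 and P2105180. The groups did not overlap for 1 member probe, beside 13.4% of all probes. The median difference of the members was -0.0584, and -0.000584 over all probes. With median centring the call counts over all probes were 2082 higher and 235 lower with furan at 3 weeks, beside 26 and 10 with loess and 168 and 144 in the deposited value table, and the 3 Bhmt probes were then called as higher, by 1.25, 1.35 and 1.00. The deposited values gave 3 called member probes, Bhmt P2105181 (0.77) and P2105180 (0.91) as higher and Cdo1 (-0.52) as lower. Within the slides the Bhmt differences at 3 weeks were 0.85, 1.00 and 0.56 on slide 1 and 0.39, 0.72 and 0.24 on slide 2. Those of Ahcy P176160 were -0.51 on both slides, and those of Cdo1 were -0.42 on slide 1 and -0.66 on slide 2.

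The difference between the furan effects at 3 weeks and at 18 h was itself called for 8 of the 15 probes, 6 higher and 2 lower, where 12.8% of all probes were called, 7.82% as higher and 4.95% as lower. The higher ones were Mat1a, both Ahcy probes, Bhmt2 and both Cth probes, each of which had fallen at 18 h. Those lower were the brighter Mat2a probe and Bhmt P2103963, which had risen at 18 h. The comparison shares all its samples with the 2 furan comparisons, so it is not separate evidence. With median centring 918 probes were higher and 2423 lower over the array, beside 2322 and 1471 with loess and 2202 and 2806 in the deposited value table, and 2 member probes were called in each direction with median centring. On either slide alone 0 member probes were called, with 0 probes called over the array on slide 1 and 1 on slide 2. The 8 differences kept their sign on each slide.

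In some groups the same sample was often the highest or the lowest across the member probes, several of which share a gene. The same counts were not taken over all probes, so whether whole arrays were offset was not tested. Furan sample 41 at 3 weeks had the highest value of its group on 12 of the 15 probes, and furan sample 44 the lowest on 10. At 18 h furan sample 41 was highest on 9 probes and furan sample 43 lowest on 7. Among corn oil livers, sample 4 was highest on 8 probes and sample 6 lowest on 9 at 3 weeks, while no 18 h corn oil sample was highest or lowest on more than 5.

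**Figure D3:**
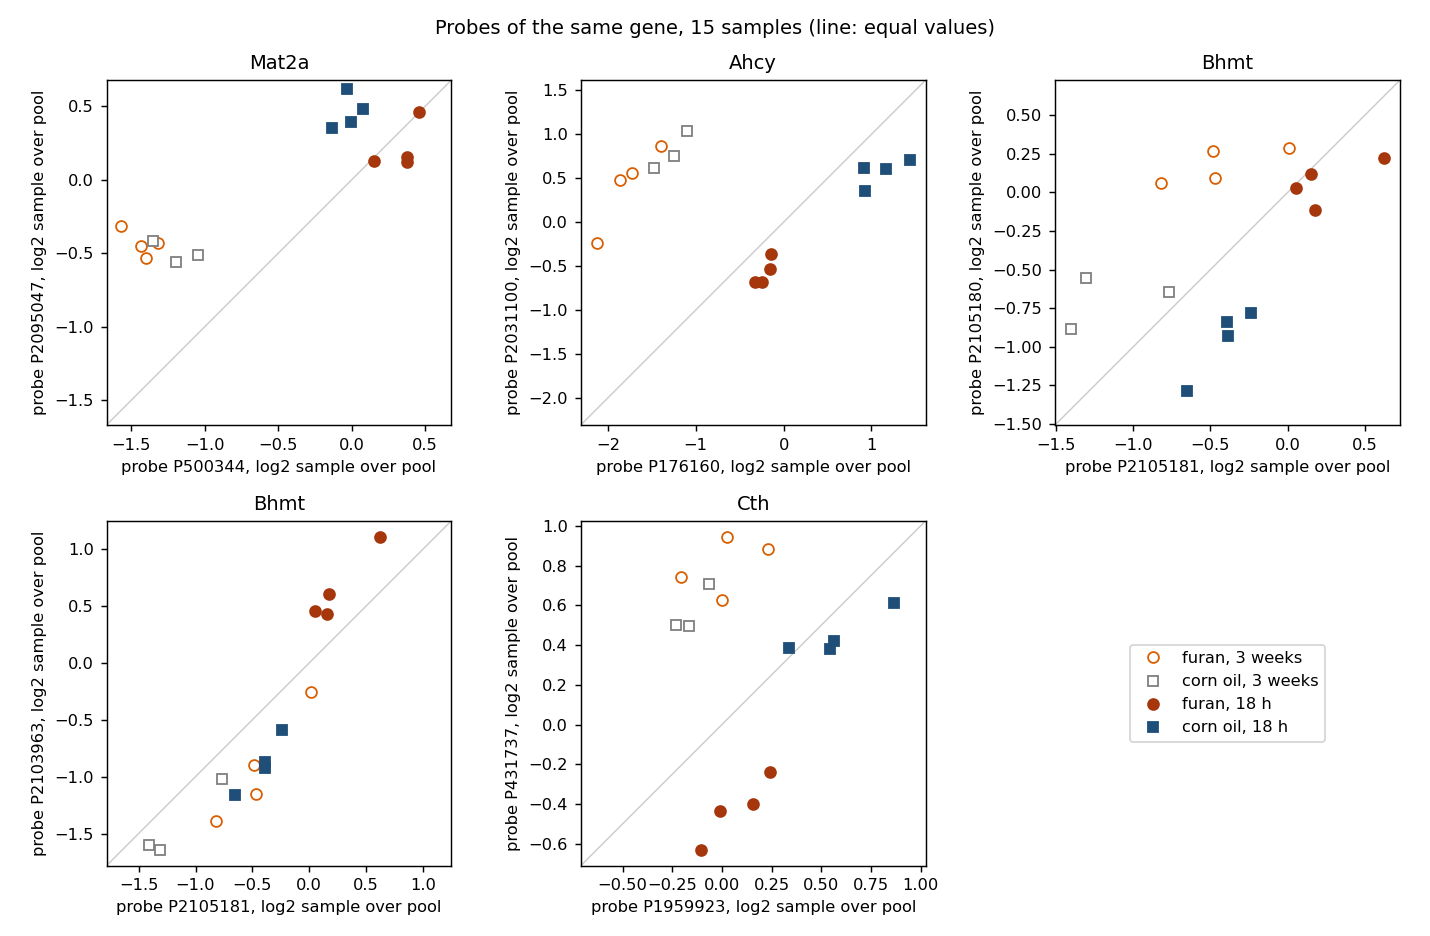
Value of one probe against another probe of the same gene, both as log2 sample over pooled reference, for Mat2a, Ahcy, Bhmt (2 pairs) and Cth, with 15 samples per panel. The diagonal marks equal values, and for Ahcy and Cth the 3-week samples lie above it and nearly all 18 h samples below it.

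Probes of the same gene did not always follow each other. Over the 15 samples, which share groups, slides and the pool, r was 0.878 for the Mat2a probes, -0.0384 for those of Ahcy and 0.0698 for those of Cth. For Bhmt it was 0.521 between P2105181 and P2105180, 0.936 between P2105181 and P2103963, and 0.518 between P2105180 and P2103963. The Ahcy and Cth probes agreed on the direction of furan at each time and differed in the level at 3 weeks relative to 18 h. Between genes, with the brightest probe of each, r was 0.968 for Mat1a and Gnmt, 0.956 for Mat1a and Cdo1, 0.958 for Ahcy and Cdo1, and 0.962 for Mat2a and Cbs. Bhmt P2105181 had r of 0.063 against Mat1a, 0.0247 against Gnmt, 0.317 against Ahcy, 0.639 against Mat2a and 0.645 against Cbs. Against the same probes in turn, Bhmt P2103963 had r of -0.0754, -0.0867, 0.25, 0.685 and 0.676. Bhmt P2105180 instead had r of -0.753, -0.767, -0.606, -0.144 and -0.175, so the likeness of Bhmt to other members depended on its probe. These are descriptions of samples that fall into groups, and carry no p.

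Most members also differed with time in formalin, as did most probes of the array. In furan livers 11 of 15 probes were called between 3 weeks and 18 h, 2 higher and 9 lower, where 67.2% of all probes were called, 35.1% as higher and 32% as lower. In corn oil livers 12 were called, all lower at 3 weeks, where 59.4% of all probes were called, 28.6% as higher and 30.8% as lower. The samples did not overlap for 2 higher and 9 lower member probes in furan livers, beside 57.7% of all probes, and for 0 higher and 11 lower in corn oil livers, beside 58.6%. The median difference of the members was -0.645 in furan livers and -0.937 in corn oil livers, beside 0.0307 and -0.000284 over all probes. With median centring the median of all probes shifted to -0.291 in furan livers and -0.239 in corn oil livers, and with the scanner's own log ratios to -0.115 and -0.159. Calls over all probes were then 4310 higher and 14157 lower in furan livers with median centring, beside 10428 and 9509 with loess, and 4063 higher and 12550 lower in corn oil livers, beside 8482 and 9142. The member probes called with median centring were 2 higher and 11 lower in furan livers and 0 higher and 13 lower in corn oil livers. Arrays of different times correlated at a median r of -0.135 to -0.275 for the 4 pairs of groups, across tested probes, which are not independent, and the direction of the ratio is that of the dyes in the labels.

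Cbs at 3 weeks fell by 1.92 in furan livers (SE 0.11, adjusted p = 3.77e-10) and fell by 1.52 in corn oil livers (SE 0.12, adjusted p = 1.47e-08), with no overlap in either. Mat2a probe P500344 fell by 1.77 in furan livers (adjusted p = 1.95e-10) and fell by 1.17 in corn oil livers (adjusted p = 5.29e-08). These were the 2 largest falls of any member probe in furan livers. The dimmer Mat2a probe, not above background at 3 weeks, was called as lower in furan livers (adjusted p = 3.4e-05), with no fold given, and in corn oil livers (adjusted p = 1.22e-06). In corn oil livers it read 1.89-fold lower within the Cy5 channel. That is the observed difference and not a bound, with the 3-week signal at background, and it is open to dye bias. Csad was called as lower at 3 weeks in furan livers (adjusted p = 0.000205), where it read 1.99-fold lower in that channel with the same limits. It was called as lower in corn oil livers too (adjusted p = 0.00263), where 1 of 4 arrays at 3 weeks measured it and no size is given.

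The Ahcy probes went apart with time. P176160 at 3 weeks fell by 1.56 in furan livers (adjusted p = 8.67e-08) and fell by 2.39 in corn oil livers (adjusted p = 1.72e-09), the largest fall of any member there. P2031100 was higher by 0.98 in furan livers (adjusted p = 3.64e-05) and differed by 0.23 in corn oil livers (adjusted p = 0.255). The same gene therefore gave opposite called directions in furan livers, according to the probe. Cth showed a like split. P1959923 differed by -0.059 in furan livers (adjusted p = 0.661) and fell by 0.73 in corn oil livers (adjusted p = 6.73e-05). P431737 rose by 1.23 in furan livers (adjusted p = 1.14e-08) and differed by 0.12 in corn oil livers (adjusted p = 0.34), where median centring gave -0.51.

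For Mat1a and Bhmt2 the change with time differed between furan and corn oil livers, which is the called difference between the furan effects in another form, while for Gnmt and Cdo1 that difference was not called. Mat1a differed by -0.25 in furan livers (adjusted p = 0.0672) and fell by 1.09 in corn oil livers (adjusted p = 1.15e-06). Without furan sample 41 at 3 weeks the Mat1a value in furan livers was -0.31 and called (adjusted p = 0.0358). Gnmt differed by -0.25 in furan livers (adjusted p = 0.162), or by -0.40 without the same sample (adjusted p = 0.0236), and fell by 0.94 in corn oil livers (adjusted p = 0.000144). Cdo1 fell by 0.72 in furan livers (adjusted p = 7.47e-05) and fell by 1.20 in corn oil livers (adjusted p = 8.01e-07). Bhmt2 fell by 0.64 in furan livers (adjusted p = 0.00014) and fell by 1.28 in corn oil livers (adjusted p = 1.88e-07).

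Among the Bhmt probes P2105181 fell by 0.69 in furan livers (adjusted p = 0.00199) and fell by 0.74 in corn oil livers (adjusted p = 0.00248). P2103963 fell by 1.58 in furan livers (adjusted p = 5.11e-06) and fell by 0.54 in corn oil livers (adjusted p = 0.0493). The corn oil call of P2103963 was lost without corn oil samples 2, 3 or 6 at 18 h or 4 or 6 at 3 weeks, with values of -0.50 to -0.36 and adjusted p of 0.099 to 0.228. P2105180 was called in neither, with 0.11 in furan livers (adjusted p = 0.433) and 0.27 in corn oil livers (adjusted p = 0.0958), and 0.35 there without corn oil sample 3 at 18 h (adjusted p = 0.0412).

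**Figure D4:**
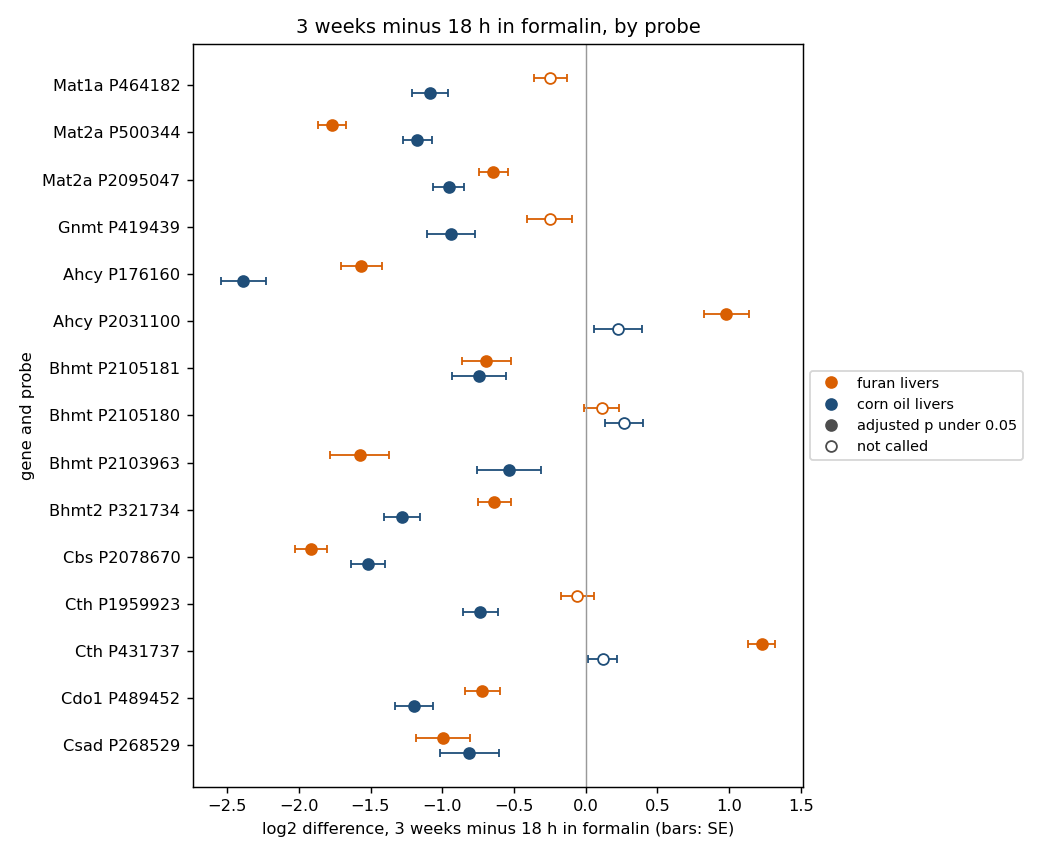
Log2 difference of 3 weeks minus 18 h in formalin (horizontal axis) with its SE for the 15 probes (vertical axis), in furan and in corn oil livers, filled where the adjusted p was under 0.05. Most points lie left of 0, while Ahcy P2031100 and Cth P431737 lie right of it and are filled in furan livers alone. Bhmt P2105180 also lies right of 0 in furan and in corn oil livers, and is filled in neither.

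By the pattern over the 15 samples, the genes most like Mat1a among 13050 named genes were Tmem50a (r = 0.9868) and Rpl17, a ribosomal protein gene (r = 0.9851), and 216 genes passed r = 0.9. For Cbs they were Rhoa, a small GTPase (r = 0.9919), and Tirap, a Toll-like receptor adaptor (r = 0.9909), among 1076 genes past 0.9. Patterns like those of Mat1a and Cbs were thus common on these arrays. For Bhmt they were 2010003K11Rik (r = 0.9408) and Cdkn2aip (r = 0.9249), and for Cth they were Gmppa (r = 0.9495) and Ptpn9, a tyrosine phosphatase (r = 0.9317). Only 5 genes passed 0.9 for Bhmt and 11 for Cth, each taken at its brightest probe. The other Bhmt and Cth probes were not compared in this way. As probes of these genes did not always follow each other, the counts hold for the brightest probes alone.

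The neighbouring genes of the pathway were counted by list, with the brightest probe of each gene. At 18 h 26 of the 47 measured genes of all lists were called, beside 47.2% of all probes, with 20.4% higher and 26.8% lower. At 18 h the betaine and choline oxidation enzymes, which supply and use up betaine and its products, had 2 of 5 lower and 0 higher with furan. Chdh, choline dehydrogenase, fell by 1.11 (adjusted p = 1.79e-05) and Sardh, sarcosine dehydrogenase, by 1.07 (adjusted p = 8.68e-05), although other probes of Chdh differed by -0.14 and -0.036 with no call. Remethylation and folate genes had 3 of 13 higher and 5 lower. Amt fell by 0.79 (adjusted p = 0.000175) and Gldc rose by 0.69 (adjusted p = 0.000184), which are parts of the same glycine cleavage system. Small-molecule methyltransferases had 1 of 8 higher and 2 lower, with Tpmt falling by 0.78 (adjusted p = 5.74e-05) and Inmt by 0.90 (adjusted p = 0.000533), while another Tpmt probe differed by -0.088 with no call.

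Further along, the genes of S-adenosylmethionine decarboxylation, polyamines and methionine salvage had 4 of 8 higher and 1 lower at 18 h. Odc1, ornithine decarboxylase, rose by 0.77 (adjusted p = 4.65e-05), but of its other probes one fell by 0.34 (adjusted p = 0.0137) and one differed by 0.21 with no call. Adi1, of the salvage pathway, fell by 0.51 (adjusted p = 0.000491), and on another probe by 0.26. The partners of Mat2a and Ahcy had 1 of 3 higher and 1 lower. Mat2b, the regulatory subunit of Mat2a, rose by 0.46 (adjusted p = 0.00103) and Ahcyl1, an Ahcy-like protein, fell by 0.82 (adjusted p = 8.87e-05), and by 0.34 on another probe. Cysteine use and sulfide oxidation had 4 of 10 higher and 2 lower. Mpst, which makes sulfide from mercaptopyruvate, rose by 0.94 (adjusted p = 2.08e-05), and Gclc, the catalytic subunit that starts glutathione synthesis, rose by 0.88 (adjusted p = 0.000164).

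At 3 weeks 0 of the 47 measured genes of these 6 lists were called by limma, beside 0.121% of all probes. With an unadjusted p under 0.05 there were 4, beside 13.8% of all probes. The difference between the furan effects was called for 2 of 5 betaine and choline genes, 2 of 13 folate genes, 1 of 8 methyltransferases, 0 of 8 polyamine and salvage genes (by limma, with 2 at an unadjusted p under 0.05), 2 of 3 partners and 3 of 10 cysteine genes. Over all lists that was 10 of 47 genes, beside 12.8% of all probes. Chdh (1.00), Sardh (0.84), Amt (0.71), Shmt2 (0.59), Tpmt (0.88), Ahcyl1 (0.87) and Ethe1 (1.12) had a higher furan effect at 3 weeks, and Mat2b (-0.80) and Mpst (-0.68) a lower one. Other probes did not all follow, with differences of -0.32 and 0.086 for Chdh, -0.032 for Tpmt and 0.35 for Ahcyl1, none called. The counts also miss called differences on other probes of genes not called at their brightest probe. These were Pemt (1.17), Shmt1 (1.14), Srm (0.89) and Aldh7a1 (0.60), while a further Pemt probe differed by 0.053 with no call. The called probes of Pemt, Shmt1, Srm and Aldh7a1 had fallen at 18 h (-1.20, -1.08, -0.76 and -0.62). At the brightest probes the median furan difference at 18 h was -0.485 over the 10 members, beside -0.172 for betaine and choline oxidation, -0.151 for methyltransferases, -0.0977 for remethylation and folate, 0.0877 for the partners, 0.124 for cysteine use and 0.373 for polyamines and salvage.

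**Figure D5:**
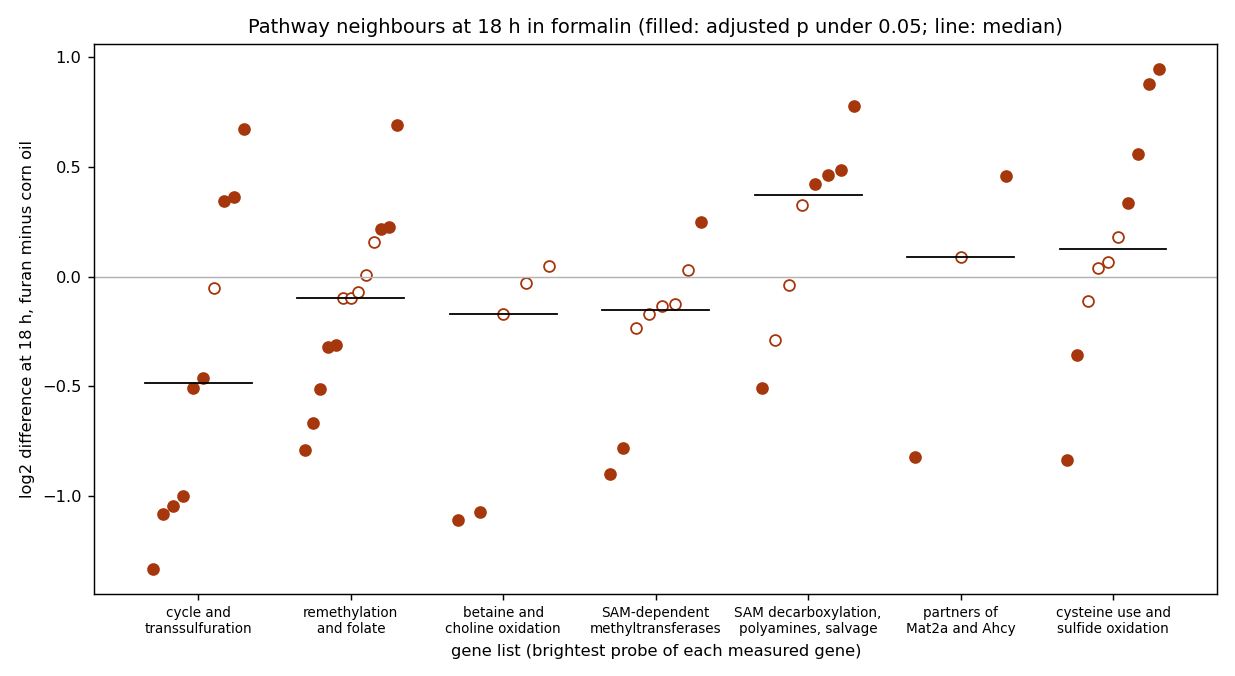
Log2 difference of furan minus corn oil livers at 18 h (vertical axis) for the brightest probe of each measured gene in the 10-member pathway and its 6 neighbouring lists (horizontal axis), filled where the adjusted p was under 0.05, with a line at each median. The members range from -1.33 to 0.67, with a median of -0.485, and each list but that of betaine and choline oxidation holds filled points on both sides of 0.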

How the data were processed

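Liver RNA was hybridised to Agilent 2-colour arrays, with 62976 spots per array, 16 arrays and 2 slides, each slide holding 2 arrays of every group. The deposited scanner files hold spot intensity from Feature Extraction 11.0.1.1 and name mm9, per the file headers, together with a log10 ratio of red over green. The authors' deposited value table appears to hold log2 ratios, judged against the scanner ratios, with column medians of -0.00919 to 0.0247, and its normalization is not given in the sources used here. The labels put the sample in Cy5 and the pool in Cy3.

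Median signals were background-corrected with normexp (offset 50) and normalized by loess within each array in limma 3.58.1 (R 4.3.3). Control spots had weight 0, outlier spots (187 to 308 an array) were dropped, and repeated spots were averaged. The test took in 29688 of 55681 probes, those that the Cy5 channel placed well above background on 3 or more arrays of some group. Accessions matched to RefSeq gave 27235 probes a symbol. Differences were fitted with lmFit and eBayes with a slide term, on the samples of one time for the furan comparisons and on all 15 samples for the others, and a threshold of 0.05 was set on Benjamini-Hochberg adjusted p. The p-values measure the spread between these samples, which are not stated to be separate animals. Genes with several probes are given by probe, and the brightest probe stands for a gene in list counts. Genes outside the pathway were named if they were called and had one of the 2 smallest p of their list, or were the 2 most like Mat1a, Bhmt, Cbs or Cth. List genes whose other probe alone was called for the difference between the furan effects are named too. The members and lists were chosen with earlier results of these data known. Alternatives covered background, centring, filter, slide, weights, threshold and samples left out. The scripts were tested on simulated data.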

Additional observations from a re-analysis of the deposited data

Results flagged for a closer look

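In 2 of 45 groups of 4 samples, 1 sample lay far from the others, and chance alone gives about 1 in 20. Mat2a probe P2095047 read 0.46 in furan sample 41 at 18 h, where the other furan samples read 0.12 to 0.15. Cth probe P431737 read 0.61 in corn oil sample 4 at 18 h, where the other corn oil samples read 0.38 to 0.42.

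The furan effect differed between the times in formalin, by the test of the difference itself, for 8 probes. It was higher at 3 weeks than at 18 h for Mat1a (0.84), the Ahcy probes P176160 (0.82) and P2031100 (0.75), Bhmt2 (0.64) and the Cth probes P1959923 (0.68) and P431737 (1.11). It was lower for Mat2a P500344 (-0.59) and Bhmt P2103963 (-1.04). The part in this of section number, which changed with time, cannot be told apart from it.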

How the results depend on the processing

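Over the settings other than leaving out a sample, single-probe results kept their direction and side of the threshold in 222 of 250 cases for furan at 18 h, 278 of 295 for furan at 3 weeks, 222 of 265 for the difference between them, 266 of 280 for time in furan livers and 275 of 295 for time in corn oil livers. The sign turned in 5, 5, 3, 3 and 5 of these cases. Several settings left every difference as it was, so their cases could not turn sign and could at most move a call. These were intensity scaling between arrays after loess, other filters, brightest probes, no slide term, other eBayes options and the stricter threshold. The counts include these cases and therefore do not measure how stable the differences are. Of results called as reported, only Bhmt2 at 18 h turned (0.061 with median centring, not called), and Cth P431737 with time in corn oil livers, not called as reported, became a called -0.51 with median centring. Among results with no call, median centring also turned Csad at 18 h (0.18), Mat1a (0.27), Mat2a P500344 (0.078) and Cbs (0.39) at 3 weeks, Bhmt P2105180 with time in furan livers (-0.058) and Ahcy P2031100 with time in corn oil livers (-0.20). The cause was not tested.

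At 18 h the 13 member calls became 1 with the share of probes above background as a covariate, with 595 calls over the array, a median difference of -0.382 beside -0.461 and a median SE 2.51 times as large, and 12 to 14 with single samples left out. Calls over the array were 8147 on slide 1, 7032 on slide 2 and 9023 at a threshold of 0.01, beside 14026. At 3 weeks the 0 calls became 1 without background subtraction, without the slide term or with arrays 2.1 and 2.2 apart, 3 with median centring, the deposited value table or all 15 samples in the fit, and 0 to 1 with samples left out. Calls over the array there ranged from 0 to 2317, beside 36. The 8 calls for the difference became 4 with median centring, 5 with the scanner's log ratios, without a filter or with the brightest probes, 2 at a threshold of 0.01, 0 on slide 1, 0 on slide 2, and 4 to 9 with samples left out. For time in furan livers the 11 calls became 7 of 10 with the brightest probes, 5 with the covariate, and 11 to 13 with samples left out. For time in corn oil livers the calls numbered 8 to 13, beside 12, and 11 to 12 with samples left out.

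Same-numbered samples of the 2 times deviated together weakly but always positively (r of 0.0184 to 0.182, over 0.1 in 2 of 7 pairs). Samples with different numbers had r of -0.163 to 0.0961, and in 5 of 7 cases a sample went best with its own number. The labels do not say whether equal numbers are the same animal, and the main fits did not take them as pairs. A random replicate block left 8, 11 and 12 member calls for the difference, time in furan livers and time in corn oil livers, and a fixed replicate block left 11 and 12 for time in furan and in corn oil livers. Signal over background limits Mat2a P2095047 and Csad at 3 weeks.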

Other observations

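Markers of other liver cell types were counted in the same way at 18 h, by the brightest probe. Over all probes 20.4% were called as higher and 26.8% as lower in that comparison. Of 5 endothelial markers 1 was higher and 4 lower with furan, and of 5 stellate cell markers 1 was higher and 3 lower. Among macrophage markers 0 of 5 were higher and 1 lower, among measured leukocyte markers 0 of 3 and 1, among measured biliary markers 0 of 2 and 1, and among measured erythroid markers 0 of 3 and 2. The summed Cy5 signal of the stellate markers was 3334 to 4372 in furan livers and 2062 to 2341 in corn oil livers, and that of the macrophage markers 7916 to 11230 in furan livers and 3040 to 8974 in corn oil livers. For the measured biliary markers it was 198 to 266 in furan livers and 302 to 387 in corn oil livers. The stellate and biliary ranges of summed signal did not overlap, in opposite directions, and the macrophage ranges did. By the ratio to the pool the median difference was -0.33 for stellate, -0.348 for biliary and 0.0988 for macrophage markers. For stellate markers the 2 measures thus went opposite ways, and the sums give no cell type direction. The part of these markers in the member results was not tested.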
